A study of Rattus norvegicus with 15 samples.

Results

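Interferon-stimulated genes were followed in rat liver as 9 genes: Isg15, Usp18, Mx1, Mx2, Ifit2, Ifit3, Rsad2, Oasl and Irf7. They were taken from the count table by gene symbol and make up 9 of its 32623 genes. All 9 were among the 14417 genes with enough counts to be tested.

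The RNA came from whole livers of male, age-matched Wistar rats. Rats of the cirrhosis group inhaled CCl4, a hepatotoxin, for 12 weeks and drank water with phenobarbital (0.35 g/L). Rats of the cirrhosis & eplerenone group had the same treatment and took eplerenone, a blocker of the mineralocorticoid receptor (MR), at 100 mg/kg body weight from week 8 until week 12. Control rats had no CCl4 and are described by the study as not treated. CCl4 and phenobarbital were given together and cannot be told apart here, so CCl4 treatment stands for both below. CCl4 had been withdrawn for 7 to 10 days when tissue was collected. According to the study, the sequenced rats were picked from a larger cohort by how well cirrhosis induction, eplerenone treatment or both had worked. The labels list 5 rats in each of the 3 groups. Control replicate 1 was not analysed here, which left 4 control rats, 5 cirrhosis rats and 5 cirrhosis & eplerenone rats. Each rat also has a label with a number in front of its own number: 15 or 20 for rats that had CCl4, and 13 or 16 for controls. What this number stands for is not stated in the sources used here. It is called the label number from here on.

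Type I interferons bind a cell surface receptor whose kinases, JAK1 and TYK2, set off a signal to the nucleus. There, a factor that contains IRF9 binds the interferon-stimulated response element upstream of many antiviral genes. The products of these genes block viral entry, translation and replication, while others feed the signal back or dampen it. In liver, hepatocytes, macrophages and other cells can all respond, so a level in whole liver is a sum over cell types. Fewer responding cells and less RNA per responding cell cannot be told apart in such samples.

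The response element (GAAANNGAAA on either strand, where N is any base) was searched in RefSeq promoters of the rat assembly GRCr8, in the 250 bases before and 50 bases after the start of each gene. A promoter was found for 5 members: Mx1, Ifit3, Irf7, Rsad2 and Oasl. The other members, Isg15, Mx2, Ifit2 and Usp18, are named only. The element was present in 3 of the 5, against 3.92% of all 33469 promoters. In Ifit3, Irf7 and Rsad2 it lay on the opposite strand, with its first base at -44, -69 and -147 from the start. The 60 bases around it are shown for these genes, because they hold the letters that the interferon-activated factor is known to bind, with the element in capitals.

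Ifit3, chr1:241527257-241527316, plus strand: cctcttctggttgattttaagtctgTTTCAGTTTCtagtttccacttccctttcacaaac
Irf7, chr1:205800058-205800117, minus strand: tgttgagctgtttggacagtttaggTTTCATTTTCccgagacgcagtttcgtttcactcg
Rsad2, chr6:48788233-48788292, minus strand: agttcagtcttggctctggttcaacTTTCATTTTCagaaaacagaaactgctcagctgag

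The 250 bases before the start are shown for Oasl and Mx1, since the group and label number results below turn on these genes. Neither window holds the element, nor does its 50-base continuation. The gamma-activated sequence (TTCNNNGAA, which reads the same on both strands) was in 0 of the 5 member promoters and in 8.87% of all promoters.

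Oasl, chr12:47356293-47356542, minus strand: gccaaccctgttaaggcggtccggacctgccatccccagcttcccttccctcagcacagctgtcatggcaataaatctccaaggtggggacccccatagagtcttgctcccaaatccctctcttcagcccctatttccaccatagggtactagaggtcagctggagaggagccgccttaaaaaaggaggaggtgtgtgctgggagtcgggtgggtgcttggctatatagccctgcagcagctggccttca
Mx1, chr11:50294607-50294856, minus strand: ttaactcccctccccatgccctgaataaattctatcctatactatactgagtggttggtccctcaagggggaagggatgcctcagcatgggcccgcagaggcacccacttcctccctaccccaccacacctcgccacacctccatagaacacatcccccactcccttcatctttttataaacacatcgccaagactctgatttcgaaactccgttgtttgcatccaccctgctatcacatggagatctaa

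Levels are given as FPM, the fragments of a gene per 1000000 counted fragments of its library, with library sizes scaled by TMM. FPM are not divided by gene length, so members are compared across rats and not with each other. Libraries held 16157491 to 21574767 counts, and 3 counts stood for 0.121 to 0.191 FPM. Differences are log2 fold changes (log2FC) with their standard error (SE) from edgeR's quasi-likelihood test, and a gene was called when its false discovery rate (FDR) over all tested genes was below 0.05.

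The comparison of cirrhosis with control asks what CCl4 together with phenobarbital did to these livers. The 9 members were all higher on average in cirrhosis, but only Oasl passed the test. The median log2FC of the members was 1.03, against -0.01 for all tested genes. Of all tested genes, 13.4% were called higher and 6.71% lower in cirrhosis, so that 1 of 9 members called is close to the share in the whole table. The remaining 8 members had log2FC from 0.45 to 1.39 and overlapped with the controls. Cirrhosis rats lay above all controls for 1 of 9 members and for 11.2% of all tested genes. The 3 cirrhosis rats with label number 15 averaged near the controls for some members. These were Mx1 (2.55 against 2.38 FPM), Ifit2 (10.3 against 10.4), Ifit3 (2.26 against 1.98), Rsad2 (2.55 against 2.19) and Usp18 (6.54 against 7.78). The 2 with label number 20 averaged 10.4, 20.1, 7.09, 5.55 and 24.8 FPM in that order. For Isg15, Mx2, Irf7 and Oasl the mean at 15 was also above that of the controls.

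Oasl belongs to the family of 2′-5′ oligoadenylate synthetase-like proteins, which act in the innate response to viral RNA. It had 2.53, 1.04, 3.91 and 1.97 FPM in control replicates 2 to 5. In cirrhosis replicates 1 to 5 it had 9.82, 8.94, 9.44, 15.74 and 10.12 FPM. The lowest cirrhosis rat was above the highest control rat, and 4 of the 5 cirrhosis rats lay within a narrow band below replicate 4. The log2FC was 2.19 (SE 0.56, FDR 0.0149 by edgeR, 0.000346 by DESeq2). Without control replicate 3 the FDR by edgeR was 0.0501, and without control replicate 5 it was 0.0518. In rats on eplerenone Oasl had 3.17, 1.63, 10.93, 13.60 and 14.37 FPM in replicates 1 to 5. The first 2 of these rats were in the control range and the other 3 were within the cirrhosis range. The current RefSeq annotation places a long noncoding RNA, LOC134481304, over Oasl, and the counting is not stated to use strand, so reads of the pair may not be separable.

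Irf7 encodes the transcription factor that amplifies interferon alpha production and is itself induced by interferon. Control replicates 2 to 5 had 15.86, 11.56, 20.09 and 12.59 FPM. Cirrhosis replicates 1 to 5 had 30.17, 19.34, 28.97, 50.05 and 68.86 FPM. Of the 5 cirrhosis rats, 4 were above every control and replicate 2 lay just under the highest control. The log2FC was 1.39 (SE 0.57) with an FDR of 0.0889 by edgeR and 0.0344 by DESeq2, so that its call depended on the tool. Eplerenone replicates 1 to 5 had 11.14, 5.26, 58.45, 49.22 and 49.83 FPM. The first pair of these rats lay below all controls and the other 3 lay well above every control.

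Isg15 encodes a ubiquitin-like protein that is secreted or conjugated to other proteins, and Usp18 encodes the protease that removes it and also dampens signalling at the interferon receptor. For Isg15, controls had 8.50, 4.39, 12.76 and 6.42 FPM and cirrhosis rats had 18.58, 7.14, 12.35, 18.82 and 25.00 FPM. Eplerenone rats had 3.88, 4.07, 19.87, 13.21 and 14.10 FPM. Of the cirrhosis rats, 3 exceeded the highest control, and on eplerenone 3 exceeded it while the other 2 were below the lowest. The log2FC of cirrhosis against control was 1.03 (SE 0.49, FDR 0.138 by edgeR).

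For Usp18, controls had 8.32, 3.47, 13.80 and 5.53 FPM. Cirrhosis rats had 8.99, 4.49, 6.15, 15.33 and 34.28 FPM, and eplerenone rats had 4.55, 4.69, 14.53, 23.71 and 13.61 FPM. The spread within cirrhosis was larger than the distance between groups, with replicate 5 far above the rest and replicate 2 near the lowest control. The log2FC against control was 0.83 (SE 0.61, FDR 0.331 by edgeR) in cirrhosis, and 0.17 without cirrhosis replicate 5.

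Mx1 and Mx2 are dynamin-like GTPases that trap viral components, and they are close paralogs on chromosome 11. Mx1 was low in controls, with 1.63, 1.10, 4.82 and 1.97 FPM. It had 2.77, 1.96, 2.91, 8.56 and 12.14 FPM in cirrhosis and 3.27, 1.81, 18.54, 13.94 and 7.54 FPM in cirrhosis & eplerenone. In both CCl4 groups the rats split into a low set inside the control range and a high set above it. The log2FC against control was 1.25 (SE 0.70, FDR 0.205 by edgeR) in cirrhosis and 1.92 (SE 0.71, FDR 0.135 by edgeR, 0.0330 by DESeq2) in cirrhosis & eplerenone.

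Mx2 had 24.55, 12.95, 27.90 and 17.30 FPM in controls and 48.48, 17.26, 36.25, 49.49 and 39.58 FPM in cirrhosis. Eplerenone rats had 8.74, 7.51, 38.98, 33.64 and 33.71 FPM. All cirrhosis rats except replicate 2 were above the controls, while on eplerenone 2 rats were below every control and 3 above. The log2FC of cirrhosis against control was 0.89 (SE 0.46, FDR 0.172 by edgeR). Reads that mapped to several places were counted at each, so counts of close paralogs such as Mx1 and Mx2, Ifit2 and Ifit3, or Oasl and Oasl2 may share reads.

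Ifit2 and Ifit3, on chromosome 1, encode tetratricopeptide repeat proteins that bind viral RNA or partner with RNA-binding family members. Ifit2 had 7.40 to 15.57 FPM in controls, 8.79 to 24.00 FPM in cirrhosis and 4.57 to 25.90 FPM in cirrhosis & eplerenone. Ifit3 ranged from 0.81 to 2.99 FPM, from 1.67 to 9.13 FPM and from 1.44 to 5.99 FPM in the same order. The groups overlapped for both genes. The log2FC of cirrhosis against control was 0.45 (SE 0.41, FDR 0.427 by edgeR) for Ifit2 and 1.08 (SE 0.54, FDR 0.160 by edgeR) for Ifit3. Without cirrhosis replicate 4 it was 0.20 for Ifit2 and 0.59 for Ifit3.

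Rsad2 encodes viperin, a radical SAM enzyme that makes a chain-terminating nucleotide against viral polymerases. Controls had 1.93, 1.10, 2.99 and 2.73 FPM. Cirrhosis rats had 2.05, 2.57, 3.02, 8.67 and 2.44 FPM, and eplerenone rats had 2.35, 2.25, 5.30, 3.89 and 4.97 FPM. Only replicate 4 stood clear of the control range in cirrhosis, while on eplerenone 3 rats were above every control. The log2FC of cirrhosis against control was 0.78 (SE 0.47, FDR 0.231 by edgeR), and 0.22 without cirrhosis replicate 4.

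**Figure D1:**
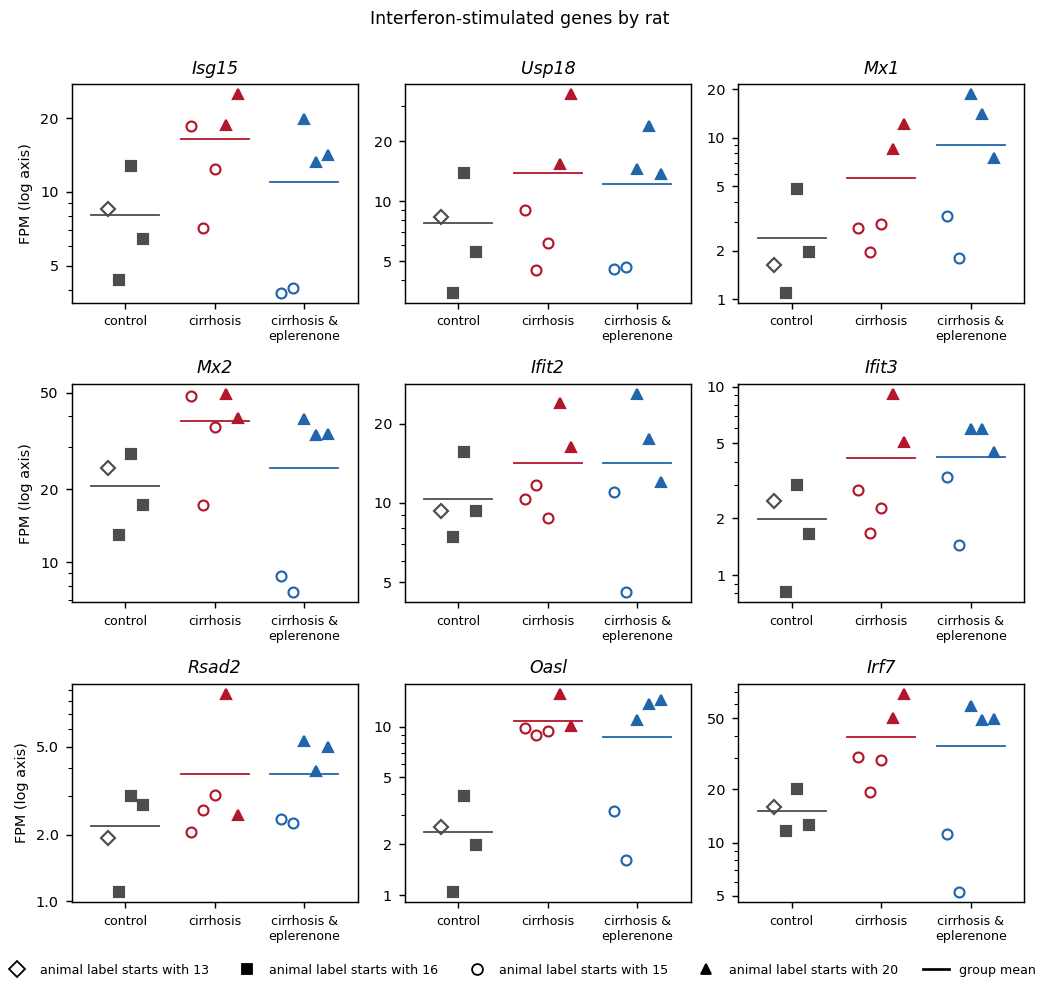
Level of each of the 9 members in each rat, in FPM on a log axis, with 1 point per rat, horizontal lines for group means and marker shapes for the label number. Oasl in cirrhosis lies above all controls, and in cirrhosis & eplerenone the 3 triangles (label number 20) lie above both circles (label number 15) in every panel.

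The comparison of cirrhosis & eplerenone with cirrhosis asks whether blocking the MR changed these genes in diseased liver. None of the 9 members was called by edgeR or by DESeq2. By edgeR 0 of 9 had an unadjusted p below 0.05, against 14.4% of all tested genes. On average 3 were higher and 6 lower on eplerenone, with log2FC from -0.64 for Mx2 (SE 0.43) to 0.68 for Mx1 (SE 0.63). FDR by edgeR lay between 0.460 and 0.998. Over all tested genes 0.0139% were called higher and 0% lower, but this share depended on the fit. Called were 2 genes by edgeR, 74 by DESeq2 and 1294 of 14126 by edgeR with 4 samples per group, with 0 members in each. The fit with 4 samples per group left out cirrhosis replicate 5 and cirrhosis & eplerenone replicate 3, both with label number 20. With the label number as a term, a fit added after the values had been seen, the median log2FC of the members was -0.51 in place of -0.18. Isg15 was then at -1.06, Mx2 at -1.18, Irf7 at -0.91 and Oasl at -0.95, each with an FDR of 0.540 by edgeR.

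Against control, the rats on eplerenone were higher on average for 9 of 9 members, with log2FC from 0.25 for Mx2 to 1.92 for Mx1 and a median of 0.78. By edgeR 0 of 9 were called, against 4.33% of all tested genes called higher and 0.895% lower, and 3 of 9 had an unadjusted p below 0.05, against 20.5% of all tested genes. DESeq2 called Mx1 (FDR 0.0330) and Oasl (FDR 0.00592), and it called 10.6% of all tested genes there, in either direction. Oasl had a log2FC of 1.89 (SE 0.55, FDR 0.0601 by edgeR), and without replicate 1 or replicate 2 of the eplerenone group it was called by edgeR too. Both comparisons with control use the same 4 control rats and are not independent.

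**Figure D2:**
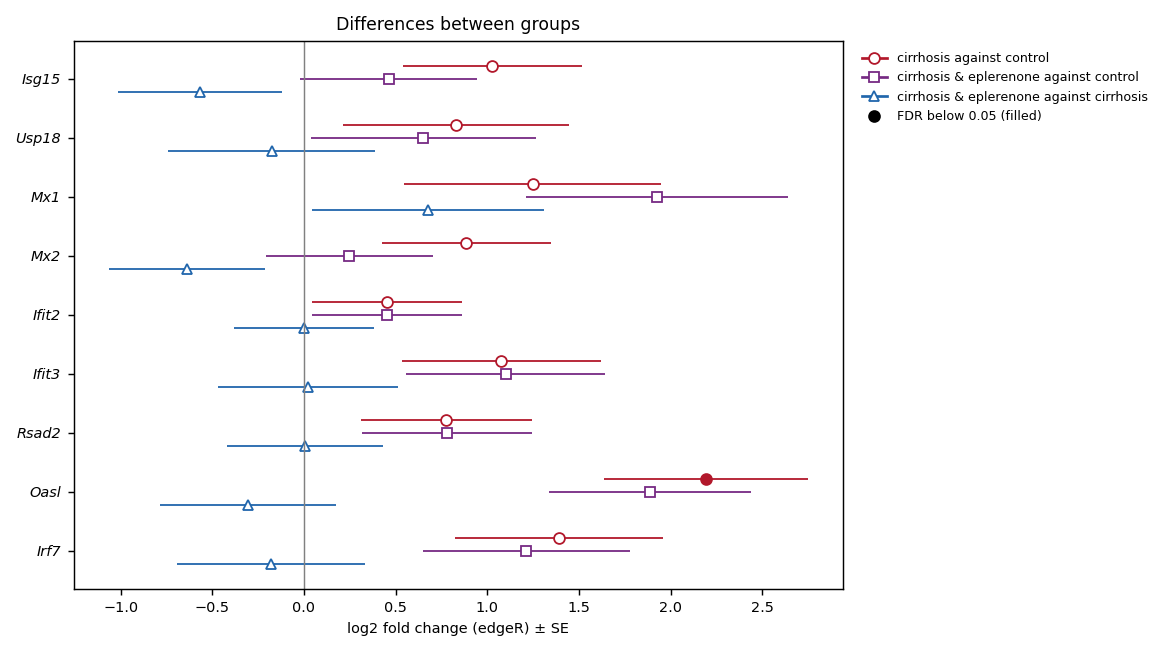
Log2FC of the 9 members in the 3 comparisons between groups, with bars of 1 SE from edgeR and filled markers for FDR below 0.05. Only Oasl in cirrhosis against control (log2FC 2.19) is filled, and the points of eplerenone against cirrhosis lie on both sides of 0.

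Within groups, the members moved together from rat to rat. In controls, replicate 3 had the lowest level of 9 of 9 members and replicate 4 the highest of 9 of 9. In cirrhosis, replicate 2 was lowest for 7 members, and replicates 4 and 5 were highest for 5 and 4. On eplerenone, replicate 2 was lowest for 7 and replicate 3 highest for 7. After the group means were taken off the log2 FPM, the correlation between pairs of members was positive for all 36 pairs, from 0.502 to 0.953 with a median of 0.796. These are descriptions over 14 rats, which share library depth and cell composition between genes. The difference by label number, given below, was not taken off and is part of these correlations.

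The rats that were high and low in both CCl4 groups differed in the label number. This comparison was made after the values had been seen. With group as a term in the model, all 9 members were higher in the 5 rats with label number 20 than in the 5 rats with label number 15, with a median log2FC of 1.42. By edgeR 2 of the 9 were called, Mx1 and Usp18, against 0.0507% of all 13795 genes tested called higher and 0.029% lower. An unadjusted p below 0.05 was found for 9 of 9 by edgeR, against 5.52% of all tested genes.

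For Mx1, rats with label number 20 had 7.54 to 18.54 FPM and rats with label number 15 had 1.81 to 3.27 FPM, a log2FC of 2.21 (SE 0.32, FDR 0.0345 by edgeR). For Usp18 the ranges were 13.61 to 34.28 FPM and 4.49 to 8.99 FPM, a log2FC of 1.91 (SE 0.29, FDR 0.0427 by edgeR). Irf7 had 49.22 to 68.86 FPM against 5.26 to 30.17 FPM, a log2FC of 1.92 (SE 0.35, FDR 0.0869 by edgeR). The label numbers did not overlap in these genes, nor in Ifit2, Ifit3 and Oasl, which makes 6 of 9 members against 1.07% of all tested genes.

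The overlapping members were Isg15, Mx2 and Rsad2. In Isg15 and Mx2 the overlap came from cirrhosis rats with label number 15, which reached 18.58 and 48.48 FPM. In Rsad2 it came from cirrhosis replicate 5, whose label number is 20. Among the 5 rats on eplerenone, all 3 with label number 20 were above both with label number 15 for 9 of 9 members, against 14.3% of all tested genes. The members moved together from rat to rat, so they are not independent of each other. The counts of members by label number therefore repeat much of the same split of rats, which was first seen in these values. The calls of Mx1 and Usp18 by edgeR depended on which rats were in the fit. With each of the 10 rats left out in turn, Mx1 was called in 2 fits (without eplerenone replicate 3 or 5) and Usp18 in 1 (without cirrhosis replicate 4). Over these 10 fits the log2FC of Mx1 stayed between 2.02 and 2.34 and that of Usp18 between 1.66 and 2.10. DESeq2 on all 10 rats called 7 members, all except Mx2 and Rsad2. The share of all tested genes that DESeq2 called there is not given here, and the shares above are those of edgeR. DESeq2 called more genes than edgeR in cirrhosis & eplerenone against cirrhosis (74 against 2), so the edgeR shares are no background for this count. No control rat shares a label number with a CCl4-treated rat, so CCl4 and label number cannot be told apart in the comparisons with control.

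Since 3 of 5 cirrhosis rats but 2 of 5 eplerenone rats had label number 15, the eplerenone comparison was also made within label numbers. Within label number 15 (2 against 3 rats), log2FC were -2.09 for Mx2 (SE 0.39, FDR 0.0565 by edgeR), -1.98 for Oasl (SE 0.37, FDR 0.0528), -1.70 for Isg15 (SE 0.41, FDR 0.0791) and -1.69 for Irf7 (SE 0.35, FDR 0.0672). In these 4 genes both eplerenone rats lay below all 3 cirrhosis rats. The same held for 23.1% of all tested genes. None of the 9 members was called by edgeR, against 0.0942% of all tested genes called higher and 0.0797% lower, and 4 of 9 had an unadjusted p below 0.05, against 27.1% of all tested genes.

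Within label number 20 (3 against 2 rats), the log2FC ran from -0.50 for Usp18 to 0.39 for Mx1, with 0 of 9 called, 0 of 9 at an unadjusted p below 0.05 and an FDR of 1 by edgeR for all. Of all tested genes 0% were called in either direction there, and 1.09% had an unadjusted p below 0.05. The difference between the label numbers in the eplerenone effect was 2.00 for Oasl (SE 0.49, FDR 0.344 by edgeR) and 1.78 for Mx2 (SE 0.52, FDR 0.374 by edgeR). It was 1.54 for Irf7 (SE 0.47, FDR 0.374) and 1.25 for Isg15 (SE 0.54, FDR 0.402). Unadjusted p by edgeR was 0.00199, 0.00629, 0.00811 and 0.0438 for these genes in that order, and 0.522 or more for the other members. Of all tested genes, 12.2% had an unadjusted p below 0.05. The difference was called for 0 of 9 members, so a difference between the label numbers in the response to eplerenone was not shown at this FDR.

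**Figure D3:**
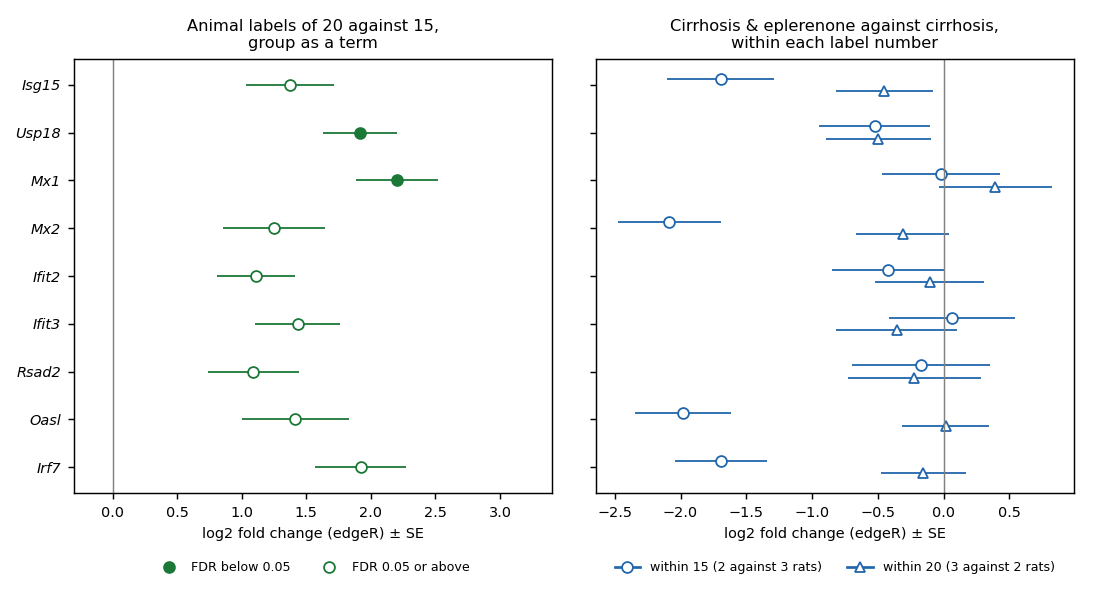
Left, log2FC of rats with label number 20 against 15 among the 10 CCl4-treated rats. Right, log2FC of eplerenone against none within each label number, with bars of 1 SE from edgeR. All 9 points on the left are above 0 with Mx1 and Usp18 filled (FDR below 0.05), and on the right Isg15, Mx2, Oasl and Irf7 lie at -1.69 or lower within label number 15, while within label number 20 the 9 points run from -0.50 to 0.39.

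Markers of cell types were read beside these values. For the counts of markers called in cirrhosis, the shares of all tested genes called by edgeR were 13.4% higher and 6.71% lower. Hepatocyte markers, 8 of 8 detected, summed to 167000 to 194000 FPM in controls, as liver should show. Their sum was 131000 to 185000 FPM in cirrhosis and 99400 to 189000 FPM in cirrhosis & eplerenone, and 1 of 8, Hnf4a, was called lower in cirrhosis (log2FC -0.81, FDR 0.0290 by edgeR). In cirrhosis, 4 of 4 cholangiocyte markers, 5 of 7 stellate cell and myofibroblast markers and 3 of 3 tested neutrophil markers (S100a8, S100a9 and Csf3r) were called higher, together with 4 of 8 T and NK cell markers and the general leukocyte gene Ptprc. B and plasma cell markers gave 0 of 5 and sinusoidal endothelial markers 0 of 3. Kupffer cell and macrophage markers went both ways. On average 4 of 9 were higher in cirrhosis, among them Cd68 (log2FC 0.74, FDR 0.0573 by edgeR, 0.0292 by DESeq2), and 5 were lower. By edgeR 0 of 9 were called higher and 1, Cd163, was called lower. The summed neutrophil markers were at 0.572 to 1.51 FPM in controls, 1.92 to 20.2 FPM in cirrhosis and 1.88 to 25.2 FPM in cirrhosis & eplerenone. They also followed the label number, with 1.88 to 8.54 FPM at 15 and 8.87 to 25.2 FPM at 20, although 0 of 3 were called in that comparison. Other immune markers were mostly higher at 20 too, with 0 called. These were 9 of 9 macrophage (median log2FC 0.38), 3 of 3 plasmacytoid dendritic cell (0.45), 5 of 6 T and NK cell (0.35) and 4 of 5 B and plasma cell markers (0.22). Of hepatocyte markers 4 of 8 were higher at 20, and of stellate cell and myofibroblast markers 3 of 7. The granule genes Mpo and Elane had no count in any control and were too low to be tested. Plasmacytoid dendritic cell markers, from the cells known as strong interferon producers, summed to 1.59 to 3.26 FPM in controls, 3.11 to 7.43 FPM in cirrhosis and 0.876 to 6.52 FPM in cirrhosis & eplerenone, with 1 of 4 tested (Cox6a2) called higher in cirrhosis. The part of these cells in the levels of the members was not tested.

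The rest of the pathway was read from lists of known genes. Counts called in cirrhosis stand beside 13.4% of all tested genes called higher and 6.71% lower by edgeR. Of the interferons themselves, 10 genes including Ifnb1, Ifng and Ifnl1 were in the table and none had enough counts to be tested. The highest of them, Ifne, had 6 counts over all 14 libraries. Of 6 receptor chains, 3 were called higher in cirrhosis and 0 lower. These were the chains of the interferon gamma receptor, Ifngr1 (log2FC 1.13, SE 0.28, FDR 0.0129 by edgeR) and Ifngr2 (1.03, SE 0.19, FDR 0.00279), and the interferon lambda receptor chain Ifnlr1 (2.30, SE 0.56, FDR 0.0119). The chains that bind type I interferon, Ifnar1 (log2FC 0.16) and Ifnar2 (-0.41), were not called, nor was Il10rb (0.57), a chain of the lambda receptor. Ifngr2 and Ifnlr1 were also called higher on eplerenone against control.

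Of the 6 genes of the signal from receptor to nucleus, 0 were called higher in cirrhosis and 1 lower. This was the kinase Jak1, at 126 FPM on average in control and 75.2 FPM in cirrhosis (log2FC -0.74, SE 0.23, FDR 0.0344 by edgeR). The kinases Tyk2 (log2FC -0.28) and Jak2 (0.24) and the DNA-binding factor Irf9 (-0.11) were among those not called. Among 13 tested sensors of nucleic acids and their adaptors, 3 were called higher and 0 lower: Tlr7, an endosomal receptor for RNA (log2FC 2.00), Sting1, the adaptor for cytosolic DNA (1.88), and Ikbke, a kinase that activates IRF3 and IRF7 (0.89). Of 7 other interferon regulatory factors, Irf5 alone was called (log2FC 1.48, FDR 0.00910 by edgeR). The enzymes that attach ISG15 to proteins, Uba7 (log2FC 0.31), Ube2l6 (0.37) and Herc6 (0.39), gave 0 of 3 called, and 5 negative regulators such as Socs1 gave 0 of 5.

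Of 41 other type I interferon-stimulated genes, 26 were higher and 15 lower in cirrhosis, with a median log2FC of 0.19. By edgeR 8 were called higher and 2 lower, against 13.4% and 6.71% of all tested genes. The largest changes among those called were in Ifi27l2b (log2FC 2.50, from 212 to 1200 FPM on average), Lgals3bp, a secreted galectin-binding glycoprotein (2.49, from 15.7 to 88.1 FPM), and Helz2, a nuclear coactivator with helicase domains (-2.08, from 78.5 to 18.6 FPM). Rtp4 was the other one called lower (-0.63). Of 16 tested genes that lean to interferon gamma, 4 were called higher and 2 lower. The largest changes were in Cd74, the MHC class II invariant chain (log2FC 3.20, FDR 0.000796 by edgeR), Gbp5, a guanylate-binding GTPase (2.74, FDR 0.00177), and Ciita, the master regulator of MHC class II genes (2.17, FDR 0.00167). The 2 called lower, named after their values were seen, were Cxcl11 (-0.95) and Igtp (-1.16). Between cirrhosis and cirrhosis & eplerenone 0 genes of any of these lists were called by edgeR. DESeq2 called 1 of them, Ifi27l2b, which was lower on eplerenone (log2FC -1.39 and FDR 0.312 by edgeR, FDR 0.0498 by DESeq2).

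On eplerenone against control, the calls by edgeR were fewer in these lists, as over all tested genes (4.33% called higher and 0.895% lower). Tlr7 was the only sensor (1 of 13). Sp100 and Lgals3bp were called higher and Rtp4 lower among the 41 interferon-stimulated genes, and Gbp5, Ciita and Cd74 were called higher among the 16 genes that lean to interferon gamma. With label number 20 against 15, 33 of 40 tested interferon-stimulated genes outside the members were higher (median log2FC 0.43), and Oasl2, a paralog of Oasl, was the 1 called (log2FC 2.26, FDR 0.00222 by edgeR). In that comparison the median of 6 receptor genes was 0.08 and that of 6 signal genes 0.06.

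**Figure D4:**
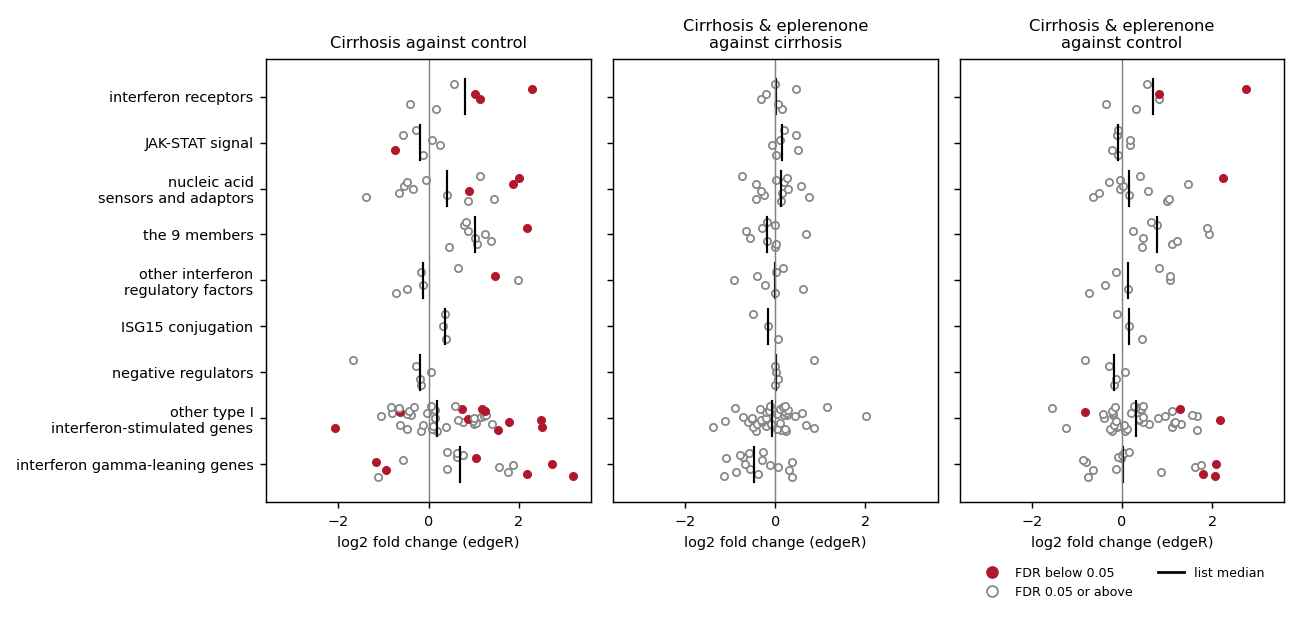
Log2FC by edgeR of each tested gene in 9 lists, in the 3 comparisons between groups, with red points for FDR below 0.05 and a black line for the median of the list. The members lie to the right of 0 in both comparisons with control (medians 1.03 and 0.78), receptor and gamma-leaning lists hold several called genes, and no point is red in the middle panel.

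Over the 14 rats, the genes outside the members whose log2 FPM followed the mean of the members most closely, after group means were taken off, were Ms4a6a (Pearson r = 0.929), Ly86, Ifit1, Phgdh, Gzmb, Fgl1, Oas1g, Tap2, LOC108348130 and Lcmt1 (r = 0.912). The difference by label number was not taken off here either, so a gene that split by it could rank high for that alone. Ifit1, Oas1g and Tap2 are known interferon-responsive genes. Ms4a6a and Ly86 are expressed in myeloid cells, Gzmb encodes a cytotoxic granule protease, Phgdh the first enzyme of serine synthesis and Fgl1 a secreted hepatocyte protein. Of the 10, Ly86 (log2FC 1.27, FDR 0.0347 by edgeR) and Phgdh (5.02, FDR 0.00803) were called in cirrhosis against control. Gzmb had under 1 FPM on average in every group.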

How the data were processed

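Poly(A) RNA of rat liver was read from both ends by the study. The authors mapped reads to rn6 with HISAT2 2.1.0, counted them over exons per gene with featureCounts (a read with several mapping sites counts at every one), and deposited the raw count per gene with no normalization or filter. Strand use is not given in the sources used here. The table held 32623 genes, of which 11341 had no count, in 14 samples.

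Groups were taken from the treatment in the labels. The 9 members and the gene lists were chosen with earlier results of these data known. Counts were filtered with filterByExpr (smallest count 10), scaled by TMM and fitted for the 3 groups in 1 model with edgeR 4.0.16 (quasi-likelihood test, R 4.3.3), with Benjamini-Hochberg adjustment over all genes tested. DESeq2 1.42.0 was the alternative tool. Genes were named by a fixed rule: all members, every called gene of a list with up to 5, otherwise the 3 largest changes, and the 10 genes most like the members. Correlations used log2 FPM with a prior count of 2. The steps were tested on simulated data. Label numbers were compared after values had been seen. Replicates are different rats, and p-values measure the spread between them. The replicate numbers did not pair rats. The floor of 3 counts covers counting error only. A gene that the lists include is not reported here by name.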

Additional observations from a re-analysis of the deposited data

Results flagged for a closer look

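Among 27 groups of values (9 members in 3 groups), 2 had a highest or lowest rat far from the others by Dixon's criterion, which flags about 1 in 20 groups by chance. Rsad2 was at 8.67 FPM in cirrhosis replicate 4, against 3.02 FPM in the next rat and 2.05 FPM in the lowest, a gap of 0.854 of the range. Without this rat the log2FC of Rsad2 against control was 0.22, in place of 0.78. Oasl was at 15.7 FPM in the same rat, against 10.1 FPM in the next, a gap of 0.826 of the range, and its call against control held without it. That rat has label number 20.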

How the results depend on the processing

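The counts rest on few rats. Of 9 members, 1 was called in cirrhosis against control. DESeq2 and a fit of only these 2 groups called 2 (Irf7 was added). Over all tested genes, DESeq2 called 27.8% there and the fit of 2 groups called 2952 of 13777. Leaving out rats in turn gave 0 to 2 members, with 0 without control replicate 3 or 5 and 2 without cirrhosis & eplerenone replicate 2. In cirrhosis & eplerenone against control 0 were called, 2 with DESeq2 (which called 10.6% of all tested genes there) and 1 with total counts. Leaving out rats gave 0 to 1, with 1 without cirrhosis & eplerenone replicate 1 or 2. For label number 20 against 15, 2 were called, 1 with total counts, 0 with 4 samples per group, and 0 to 1 on leaving out rats. DESeq2 called 7 there, for which the share of all tested genes is not given here. Cirrhosis & eplerenone against cirrhosis gave 0 in every setting. Total counts moved the median of all genes by 0.29 (cirrhosis) and 0.32 (eplerenone) against control. With the replicate number as a block the counts were 1, 0 and 0, and same-numbered rats did not deviate together (median r -0.0732 over 13 pairs), so the numbers are not a pairing. The cause of these changes was not tested. None of the reversals of eplerenone against cirrhosis concerned a called gene.

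In that comparison Ifit2 turned to 0.0812 with total counts, 0.00422 with no filter and 0.00504 with only 2 groups, and ran from -0.36 to 0.286 on leaving out rats. Ifit3 turned to -0.0771 with 4 samples per group, -0.15 with the label number as a term and -0.36 within label number 20, and ran from -0.183 to 0.542. Rsad2 turned to -0.0173 with DESeq2, -0.0172 with its size factors, -0.00803 with at least 10 counts in every sample, -0.29 with 4 samples per group, -0.20 with the label number as a term, -0.17 within label number 15 and -0.22 within 20, and ran from -0.182 to 0.583. Irf7 ran from -0.462 to 0.116. Usp18 turned to 0.40 with 4 samples per group and ran from -0.561 to 0.485. Mx1 turned to -0.0178 within label number 15 and Oasl to 0.0174 within 20.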

Other observations

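Of the 13795 genes tested for label number among CCl4-treated rats, 11 were called by edgeR, 7 higher at 20 and 4 higher at 15, and they are named here after their values were seen. Beside Mx1, Usp18 and Oasl2, the genes higher at 20 were LOC100361008 (0.669 FPM on average at 15 and 13.6 FPM at 20), AABR07044362.1 (0.794 and 18.8 FPM), Rtn4ip1 (6.67 and 28.1 FPM) and Lilrb3 (8.15 and 24.5 FPM). Those higher at 15 were Cela1 (36.4 FPM at 15 and 5.17 FPM at 20), Nnmt (255 and 63.5 FPM), Hcn2 (3.48 and 0.258 FPM) and Gls2 (291 and 85.1 FPM). The first of these groups holds 3 known interferon-stimulated genes, and Gls2 and Nnmt encode hepatic enzymes of glutamine and nicotinamide metabolism.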
